A study of Mus musculus with 12 samples.

Results

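Fatty acids are built in the cytosol from citrate that leaves the mitochondria, and 10 genes of this route and its control were examined in cultured adipocytes of 3 Pparg genotypes. They were picked by gene symbol, from their roles in the route, with earlier results of these data known. The 10 genes were Slc25a1, Acly, Pcx, Me1, Acaca, Acacb, Fasn, Srebf1, Mlxipl and Thrsp. All 10 were found among the 55573 genes counted, and all 10 passed the filter on low counts, which left 15117 genes. The adipocytes were grown from the stromal vascular fraction of inguinal subcutaneous fat, that is, the cells left in digested fat once the lipid-filled cells have floated off. The donors were C57BL/6 mice with unmutated PPARγ (WT, littermate controls), or homozygous knock-in mice made with CRISPR-Cas9. In T166A (TA) the threonine of PPARγ that can be phosphorylated is an alanine, and in T166D (TD) it is an aspartate that mimics the phosphate. The knock-in is in the germ line, so every cell type of the mutant cultures carries it, and the ages of the mice and the number of founder lines were not taken from the labels. Cultures of each genotype received the same induction medium for 4 days, with indomethacin (125 nM), the phosphodiesterase inhibitor IBMX (0.5 mM), insulin (850 nM), the thyroid hormone T3 (1 nM) and dexamethasone, whose concentration the labels give as 5 mM and the study's methods as 5 μM. They were then kept in insulin and T3 and harvested on day 8 for RNA sequencing, with 4 libraries per genotype (TA 3 below is TA replicate 3). Because insulin and T3 were in the medium of the cells behind all 12 libraries, no library represents the unstimulated state. Nothing in the labels says whether the 4 libraries of a genotype came from separate mice or from separate cultures, so the p-values measure the spread between these libraries, which may be technical.

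The route starts in the mitochondrion, where acetyl-CoA and oxaloacetate form citrate. The carrier Slc25a1 exports citrate, and Acly, ATP citrate lyase, splits it in the cytosol into acetyl-CoA and oxaloacetate. Oxaloacetate is returned as malate or pyruvate, a step in which cytosolic malic enzyme Me1 makes NADPH, and pyruvate carboxylase Pcx refills the mitochondrial pool. Acetyl-CoA carboxylase makes malonyl-CoA from acetyl-CoA, and fatty acid synthase Fasn joins these units to palmitate. The transcription factors SREBP-1 (from Srebf1), which answers to insulin, and ChREBP (from Mlxipl), which answers to glucose, drive transcription of many genes of the route, and Thrsp, a thyroid hormone-responsive protein known as Spot 14, accompanies them. White adipocytes use the route to make stored fat from glucose, and PPARγ is the master regulator of their differentiation.

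Library depth was 18823619 to 20324286 counts in WT, 16950175 to 18182526 in TA and 16553324 to 18357864 in TD. The adipocyte markers Adipoq and Fabp4 were high in every genotype, with means of 729 and 7708 normalized counts (CPM, scaled to 1000000 counts per library) in WT, 803 and 8898 in TA and 600.4 and 5166 in TD. The summed level of 10 adipocyte markers was 20070 to 22767 CPM in WT, 18770 to 23656 CPM in TA and 14107 to 16106 CPM in TD, so that TD stood below both other genotypes in each library. Of these 10 markers 8 fell in TD against WT, where 14.2% of all genes were called lower, and none rose by edgeR, by DESeq2 or at an unadjusted p under 0.05. Of the preadipocyte and fibroblast markers tested (9 of 10), 7 rose in TD and 5 in TA, where 15.1% and 6.72% of all genes were called higher. The summed level of 10 preadipocyte and fibroblast markers was 9182 to 12465 CPM in WT, 10381 to 18605 CPM in TA and 15704 to 23738 CPM in TD, and that of 8 skeletal muscle markers was 5.36 to 11.99, 17.2 to 68.4 and 17.997 to 257 CPM. Summed macrophage markers (8 genes, 272 to 797, 133 to 580.2 and 612 to 854 CPM) and endothelial markers (6 genes, 25.0 to 53.5, 47.2 to 85.3 and 100.002 to 126 CPM) were the other lists examined, and no marker of the 5 lists was at 0 in all libraries. By edgeR all 6 endothelial and all 8 skeletal muscle markers rose in TD against WT, and 3 and 5 of them in TA. With 1 library left out, the endothelial counts were 6 in TD and 2 to 5 in TA. The skeletal muscle counts were then 7 to 8 in TD and 2 to 5 in TA. Other settings gave 2 to 8 skeletal muscle markers higher in TD and 0 to 8 in TA. No macrophage marker was called against WT, beside 2 higher in TD and 4 lower in TA at an unadjusted p under 0.05. TD against TA gave 6 adipocyte markers lower and 1 higher, where 9.37% and 7.33% of all genes were. Higher in TD than in TA were 3 preadipocyte and fibroblast, 3 macrophage, 3 endothelial and 4 skeletal muscle markers. With 1 library left out these counts were 1 to 4, 0 to 8, 2 to 4 and 0 to 7. These lists had no marker lower in TD than in TA, also at an unadjusted p under 0.05. The share of mitochondrially encoded counts was 4.92 to 5.88% in WT, 2.74 to 4.50% in TA and 2.86 to 3.57% in TD, lower in each mutant library than in each WT library, and its part in the results was not tested. Pparg itself averaged 354 CPM in WT, 374 CPM in TA and 237 CPM in TD. Counts per gene do not show the codon, so the knock-in was not checked here. In bulk RNA, fewer adipocytes and less RNA per adipocyte cannot be told apart, and the TD values of the 10 genes and of the lists around them are given below also relative to these markers. For that purpose the libraries were also scaled to the summed adipocyte markers in place of all genes, a setting added after the data had been seen. In WT, Fabp4 and Lpl (7452 CPM) made up most of this sum, and the mutated gene Pparg is among the 10 markers. Whether the genotype of PPARγ changes these markers directly was not tested, so the scaling is not a measure of adipocyte number. That setting raised the median log2 fold change of all genes from 0.011 to 0.49 for TD against WT and from 0.023 to 0.50 for TD against TA, and left it at 0.0031 for TA against WT.

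In TA most genes of the route were higher than in WT, from 1.25-fold for Srebf1 to 3.09-fold for Acly. Of the 10 genes, 7 rose (Slc25a1, Acly, Me1, Acaca, Fasn, Srebf1 and Thrsp), where 6.72% of all genes tested were called higher. Acacb alone fell, where 4.41% of all genes were called lower, and Pcx and Mlxipl did not pass the test. The median log2 fold change of the 10 genes was 0.74, beside -0.0056 over all genes tested. The 4 TA libraries lay apart from the 4 WT libraries for 7 of the 10 genes, a separation seen for 13.6% of all genes. These 7 were the genes that rose other than Srebf1, whose libraries overlapped, together with Acacb, which was lower. With the libraries scaled to adipocyte markers, 7 genes were again called higher and 1 lower, where 3.96% and 3.15% of all genes were.

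In TD 4 of the 10 genes passed the test against WT. Acly rose, where 15.1% of all genes were called higher, while Slc25a1, Pcx and Acacb fell, where 14.2% were called lower, and the other 6 did not pass the test. The median of the 10 genes was -0.15 on the log2 scale, against 0.011 over all genes. The 4 libraries of each genotype lay apart for 4 of the 10 genes, against 32.2% of all genes, a share close to the background. With adipocyte scaling TD was called above WT for 6 genes (Acly, Acaca, Me1, Slc25a1, Srebf1 and Thrsp) as for 64.5% of all genes, and below it for Acacb alone, beside 1.67% of all genes.

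Between the mutants, TD was below TA for 8 genes, where 9.37% of all genes were called lower, and for none was it higher by edgeR, by DESeq2 or at an unadjusted p under 0.05 (0 genes in each), where 7.33% of all genes were. Acacb and Mlxipl did not pass the test, with 95% intervals of the log2 fold change from -0.60 to -0.04 and from -0.35 to 0.08. The median of the 10 genes was -0.78, beside 0.023 over all genes tested. TD and TA libraries lay apart for 8 of 10 genes, against 19.9% of all genes. Relative to adipocyte markers 5 genes were called lower (Acly, Fasn, Me1, Slc25a1 and Thrsp), beside 1.57% of all genes, and Mlxipl was called higher, as were 65.5% of all genes. The comparisons share libraries, so they are not independent of each other. Together the 10 genes took 1.61 to 2.07% of the normalized counts of a WT library, 2.56 to 3.16% of a TA library and 1.48 to 1.66% of a TD library.

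**Figure D1:**
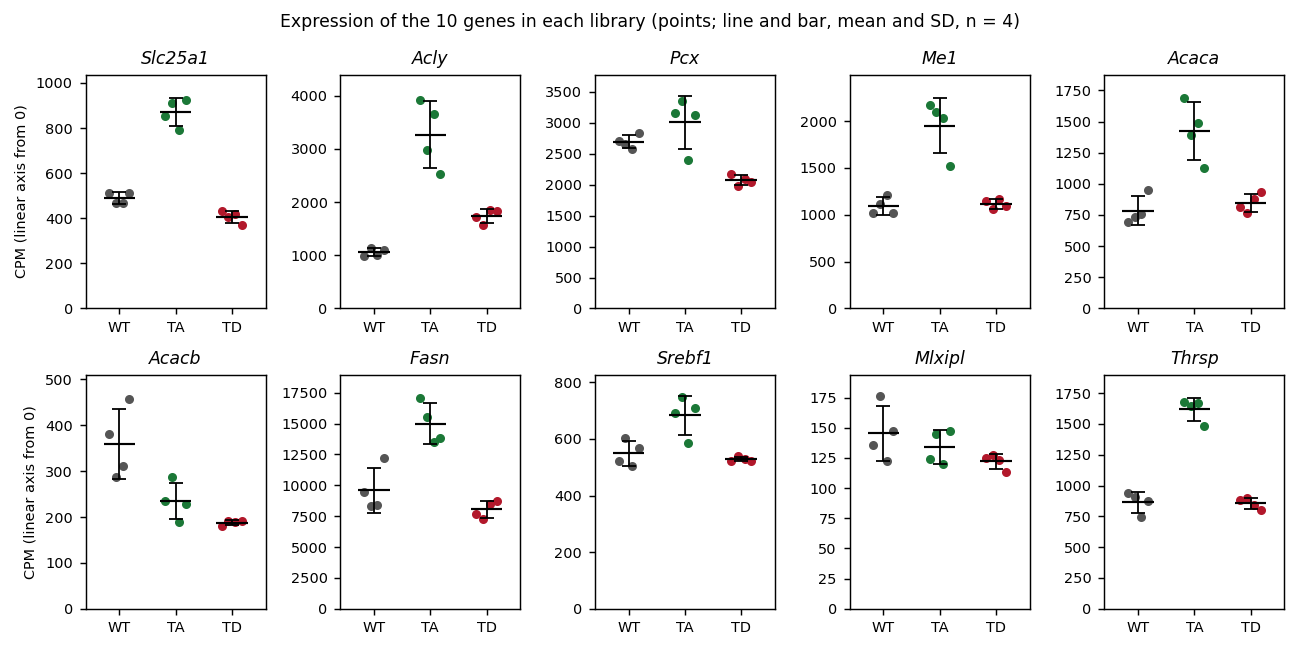
CPM of each of the 10 genes (linear axis from 0) in the 4 WT, 4 TA and 4 TD libraries (points), with the mean (line) and SD (bar). For Slc25a1, Acly, Me1, Acaca, Fasn and Thrsp all 4 TA libraries lie above all WT and TD libraries, and for Acacb all 4 TA and 4 TD libraries lie at or below 287 CPM, the level of the lowest WT library.

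Promoter sequence is shown for 3 genes that rose in TA, the carrier, the lyase and the synthase that form the backbone of the route, and for Mlxipl, which did not pass the test in any comparison. The RefSeq promoter table, on GRCm38.p6, held 15 promoters for the 10 genes. Each was searched in the 250 bases before the start, on both strands, for the E-box CACGTG (a ChREBP, MYC and USF-type site), the sterol element core TCACNCCAC, the NF-Y box CCAAT, the GC box GGGCGG and the nuclear receptor hexamer AGGTCA. Below are the 150 bases before the start, 5′ to 3′ on the strand of the gene, for Slc25a1 (chr16:17928220-17928369, minus strand), Acly (chr11:100528001-100528150, minus strand), Fasn (chr11:120824548-120824697, minus strand) and Mlxipl (chr5:135089740-135089889, plus strand). None of the 4 windows overlaps an annotated exon, and capitals mark the motif letters on either strand.
Slc25a1: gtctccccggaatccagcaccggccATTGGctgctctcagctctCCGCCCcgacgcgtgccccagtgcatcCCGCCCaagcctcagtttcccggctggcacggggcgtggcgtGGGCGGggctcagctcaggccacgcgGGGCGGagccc
Acly: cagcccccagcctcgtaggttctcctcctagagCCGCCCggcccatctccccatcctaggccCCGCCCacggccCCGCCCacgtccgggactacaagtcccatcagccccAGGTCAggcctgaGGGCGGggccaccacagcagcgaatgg
Fasn: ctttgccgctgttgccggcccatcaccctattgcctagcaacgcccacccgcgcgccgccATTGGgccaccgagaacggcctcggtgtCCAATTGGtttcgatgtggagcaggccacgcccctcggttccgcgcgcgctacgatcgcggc
Mlxipl: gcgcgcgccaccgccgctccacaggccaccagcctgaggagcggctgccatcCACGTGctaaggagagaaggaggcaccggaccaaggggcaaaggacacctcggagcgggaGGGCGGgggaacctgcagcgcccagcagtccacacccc
The Acly window held 4 GC boxes and, at position -40 from the start, the hexamer, which was found in 14.0% of all 32851 promoters and in no other promoter of the 10 genes. Fasn had CCAAT letters at positions -90, -62 and -59, the last pair overlapping on opposite strands, and no GC box. Slc25a1 had 4 GC boxes, a CCAAT box at -125 and an E-box at -239, outside the stretch shown. Mlxipl had an E-box at -98, and its other listed start, within an intron, had the only sterol element core among the 10 genes, a motif that 1.05% of all promoters held. Of the 15 promoters, 9 held a CCAAT box, 7 a GC box and 3 an E-box, where 33.8%, 32.7% and 6.02% of all promoters held them. A match of letters is a description of the sequence and not a bound site.

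Slc25a1 (ENSMUSG00000003528, chromosome 16, 17925223 to 17928219, 7 merged exons), the mitochondrial citrate carrier, had the lowest log2 fold change of the 10 genes between TD and TA. Its level was 512, 466, 468 and 510.2 CPM in the WT libraries, 855, 912, 792 and 926 CPM in TA and 431, 406, 420.0 and 369.9 CPM in TD. The 3 genotypes formed 3 separate ranges, TA at the top and TD at the bottom. Slc25a1 rose in TA by 0.83 ± 0.08 on the log2 scale (SE, edgeR adjusted p = 3.56e-06), a 1.78-fold difference with a 95% interval of 1.59 to 1.997. TD was below TA by a log2 fold change of -1.10 ± 0.08 (edgeR adjusted p = 3.06e-07), or -0.62 relative to adipocyte markers (edgeR adjusted p = 4.25e-05). The lower level of TD than of WT, -0.27 ± 0.08 (edgeR adjusted p = 0.0172), turned to a higher one relative to adipocyte markers, 0.22 (edgeR adjusted p = 0.0108). It also missed the threshold with library totals (-0.20, edgeR adjusted p = 0.0525), without WT replicate 1 (edgeR adjusted p = 0.0548), without WT replicate 4 (0.0501) and without TD replicate 4 (0.0689).

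Acly (ENSMUSG00000020917, chromosome 11, 100476353 to 100528000, 30 merged exons) changed more than any other of the 10 genes in TA, and was the only one of them that rose in TD with TMM scaling. Its level was 988, 1135, 1005 and 1102 CPM in WT, 3926, 2978, 3652 and 2525 CPM in TA and 1726, 1561, 1845 and 1835 CPM in TD. No library of any genotype overlapped with another genotype, and TD lay between WT and TA. Acly rose 3.09-fold in TA (log2 1.63 ± 0.12, 95% interval of the fold 2.59 to 3.70, edgeR adjusted p = 3.41e-07) and 1.65-fold in TD (log2 0.72 ± 0.12, 1.38 to 1.96, edgeR adjusted p = 4.69e-04). TD was below TA by -0.91 ± 0.12 on the log2 scale (edgeR adjusted p = 1.35e-04). Relative to adipocyte markers the log2 fold changes were 1.65 in TA and 1.21 in TD, and TD remained below TA by -0.45 (edgeR adjusted p = 0.0250).

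The cytosol can also gain acetyl-CoA from acetate, through the synthetase Acss2, and the ratio of Acly to Acss2 within a library does not depend on how libraries are scaled. It was 1.33, 1.76, 1.54 and 1.37 in WT, 5.01, 3.76, 5.69 and 3.25 in TA and 2.68, 2.89, 2.91 and 3.16 in TD. The ratio was higher in each mutant library than in each WT library, 2.90-fold in TA and 1.95-fold in TD on the log scale. Each of the 3 comparisons gave the smallest two-sided p that exact permutation of 4 and 4 libraries allows, 0.0286, or 0.0429 after adjustment over the 9 ratio tests. Acss2 itself did not pass the test in TA (log2 0.07 ± 0.10, edgeR adjusted p = 0.689) or in TD (-0.25 ± 0.10, edgeR adjusted p = 0.0637) against WT.

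The enzymes that replace mitochondrial oxaloacetate and supply cytosolic NADPH did not share 1 pattern. Pcx (ENSMUSG00000024892, chromosome 19, 4510472 to 4621752, 25 merged exons), the biotin enzyme that carboxylates pyruvate, was at 2699.6, 2655, 2584 and 2843 CPM in WT, 3156, 3358, 2393 and 3120.3 CPM in TA and 2169.6, 1979.5, 2101 and 2047 CPM in TD. TA 3 lay below all WT libraries and the other 3 TA libraries above them, and all TD libraries were lower than those of both other genotypes. Pcx did not pass the test in TA (log2 0.16 ± 0.10, 95% interval -0.05 to 0.36, edgeR adjusted p = 0.343), but did without TA replicate 3 (0.25, edgeR adjusted p = 0.0487). Its lower level in TD, -0.38 ± 0.10 against WT (edgeR adjusted p = 0.00849) and -0.54 ± 0.10 against TA (edgeR adjusted p = 0.00166), was lost relative to adipocyte markers, where the log2 fold changes were 0.11 and -0.05 (edgeR adjusted p = 0.252 and 0.605).

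Me1 (ENSMUSG00000032418, chromosome 9, 86581371 to 86695953, 17 merged exons) was at 1015, 1117, 1214 and 1022 CPM in WT, 2167, 2096, 2031 and 1515 CPM in TA and 1143, 1061, 1173 and 1091 CPM in TD. WT and TD shared the same range, and all TA libraries lay above it. The rise in TA was 1.79-fold (log2 0.84 ± 0.11, edgeR adjusted p = 7.35e-05). TD differed from WT by a log2 fold change of 0.03 with a 95% interval of -0.19 to 0.25, and from TA by -0.81 ± 0.11 (edgeR adjusted p = 1.22e-04), the latter being -0.34 relative to adipocyte markers (edgeR adjusted p = 0.0428). Scaled to adipocyte markers, Me1 in TD was also called above WT (0.51, edgeR adjusted p = 0.00527).

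The acetyl-CoA carboxylases went opposite ways in TA. Acaca (ENSMUSG00000020532, chromosome 11, 84129672 to 84401651, 59 merged exons) encodes the cytosolic form whose malonyl-CoA is used for synthesis, and Acacb (ENSMUSG00000042010, chromosome 5, 114146535 to 114250761, 55 merged exons) the form at the outer mitochondrial membrane whose malonyl-CoA restrains the import of fatty acids for oxidation. Acaca was at 696, 734, 756 and 953 CPM in WT, 1687, 1395, 1489 and 1128 CPM in TA and 814, 765, 876 and 936 CPM in TD. Acacb was at 381, 287, 311 and 458 CPM in WT, 236, 287, 190.0 and 228 CPM in TA and 179, 190.5, 189.9 and 192 CPM in TD. TA was thus above both other genotypes for Acaca, while for Acacb WT was above both mutants, by a narrow margin between WT 2 and TA 2.

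Acaca rose 1.82-fold in TA (log2 0.86 ± 0.12, edgeR adjusted p = 2.17e-04) and did not pass the test in TD against WT (0.11, 95% interval -0.14 to 0.37, edgeR adjusted p = 0.530). TD was below TA by -0.75 ± 0.12 (edgeR adjusted p = 6.90e-04), which was -0.28 relative to adipocyte markers (edgeR adjusted p = 0.124), where Acaca in TD was called above WT (0.60, edgeR adjusted p = 0.00415). Acacb fell in TA by 0.61 on the log2 scale (SE 0.13, edgeR adjusted p = 0.00665) and in TD by 0.93 (SE 0.13, edgeR adjusted p = 1.93e-04), and it was called lower in both relative to adipocyte markers, by 0.61 and 0.44. Against TA, TD was at -0.32 ± 0.13 (edgeR adjusted p = 0.107), a value that passed the test without TA replicate 3 (-0.41, edgeR adjusted p = 0.0293) or with no filter on low counts (-0.31, edgeR adjusted p = 0.00719) and reversed relative to adipocyte markers (0.17, edgeR adjusted p = 0.199). Acacb varied little between TD libraries, with a coefficient of variation of 3.12%, beside 21.5% in WT and 16.9% in TA.

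The ratio of Acacb to Acaca within a library was 0.548, 0.391, 0.411 and 0.481 in WT, 0.140, 0.206, 0.128 and 0.202 in TA and 0.220, 0.249, 0.217 and 0.206 in TD. Every mutant library had a lower ratio than every WT library. The ratio was 2.75-fold lower in TA and 2.04-fold lower in TD than in WT, each at the smallest p of the exact permutation test (0.0286, adjusted 0.0429), and free of the scaling of libraries. TD and TA overlapped (exact permutation p = 0.0571, adjusted 0.0643). The counts per gene do not separate start sites or splice forms of either carboxylase.

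**Figure D2:**
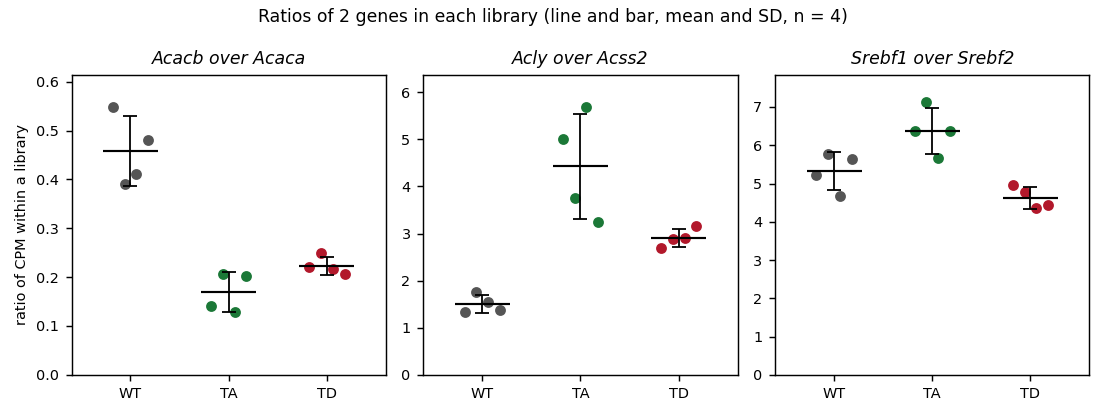
Ratio of the CPM of Acacb to Acaca, Acly to Acss2 and Srebf1 to Srebf2 (linear axes from 0) in each WT, TA and TD library (points), with the mean (line) and SD (bar) of 4 libraries. All TA and TD libraries lie at or below 0.249 for Acacb over Acaca, beside 0.391 for the lowest WT library, and at or above 2.68 for Acly over Acss2, beside 1.76 for the highest WT library.

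Fasn (ENSMUSG00000025153, chromosome 11, 120805846 to 120824547, 42 merged exons), the synthase that makes palmitate, was the most abundant of the 10 genes in each genotype. It was at 9447, 8298, 8369.9 and 12205 CPM in WT, 17054, 15563, 13504 and 13863 CPM in TA and 7684, 7296, 8445 and 8735 CPM in TD. WT 4 was the highest WT library, the TA libraries were all above it, and TD overlapped with the lower WT libraries. Fasn rose 1.57-fold in TA (log2 0.65 ± 0.13, 95% interval of the fold 1.30 to 1.89, edgeR adjusted p = 0.00346). TD was at -0.25 ± 0.13 against WT (edgeR adjusted p = 0.150), a value that reversed to 0.24 relative to adipocyte markers (edgeR adjusted p = 0.110), and below TA by -0.90 ± 0.13 (edgeR adjusted p = 2.45e-04), or -0.42 relative to adipocyte markers (edgeR adjusted p = 0.0119).

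Of the regulators, Srebf1 and Thrsp rose in TA and Mlxipl did not pass the test. Srebf1 (ENSMUSG00000020538, chromosome 11, 60199089 to 60222581, 18 merged exons) was at 522, 603, 503 and 566 CPM in WT, 693, 748, 586 and 708 CPM in TA and 521, 538, 530.2 and 523 CPM in TD. TA 3 lay within the WT range and the other 3 TA libraries above it, while TD lay inside the WT range with a coefficient of variation of 1.46%. Srebf1 rose 1.25-fold in TA (log2 0.32 ± 0.08, edgeR adjusted p = 0.0216). That call was lost when WT replicate 1 (edgeR adjusted p = 0.0692), WT replicate 3 (0.0740), TA replicate 1 (0.0557) or TA replicate 2 (0.0506) was left out, and when WT and TA were fitted without TD (0.0673). TD was below TA by -0.37 ± 0.08 (edgeR adjusted p = 0.00707), a difference that reversed to 0.11 relative to adipocyte markers (edgeR adjusted p = 0.234). Against WT, TD was at -0.05 (95% interval -0.23 to 0.12), which reversed to 0.013 with library totals and to a called 0.43 relative to adipocyte markers (edgeR adjusted p = 6.85e-04). Srebf1 shares 109 exon bases with Rai1 on the opposite strand, whose mean count was 766 beside 10668 for Srebf1, and its isoforms (SREBP-1a and SREBP-1c) are counted together.

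The ratio of Srebf1 to Srebf2, which encodes the SREBP of cholesterol synthesis, was 5.22, 5.77, 4.67 and 5.64 in WT, 6.37, 7.13, 5.65 and 6.37 in TA and 4.97, 4.77, 4.35 and 4.43 in TD. TD lay below TA without overlap, 1.38-fold lower (exact permutation p = 0.0286, adjusted 0.0429). TA and WT overlapped (exact permutation p = 0.0571, adjusted 0.0643), as did TD and WT (0.0857, adjusted 0.0857).

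Mlxipl (ENSMUSG00000005373, chromosome 5, 135089890 to 135138382, 15 merged exons) was at 135, 176, 122 and 147 CPM in WT, 124, 145, 119.7 and 147 CPM in TA and 125, 127, 123 and 114 CPM in TD. The ranges of the 3 genotypes overlapped. Its log2 fold change was -0.12 in TA (95% interval -0.33 to 0.10, edgeR adjusted p = 0.527) and -0.25 in TD (95% interval -0.47 to -0.04, edgeR adjusted p = 0.0741). The TD value passed the test without WT replicate 3 (-0.32, edgeR adjusted p = 0.0255) or with no filter on low counts (-0.25, edgeR adjusted p = 0.0293), and reversed to 0.23 relative to adipocyte markers (edgeR adjusted p = 0.0559). Against TA, TD was at -0.13 (edgeR adjusted p = 0.395), which reversed to a called 0.35 in that scaling (edgeR adjusted p = 0.00789). The ChREBP isoforms, which start at different exons, were counted as 1 gene.

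Thrsp (ENSMUSG00000035686, chromosome 7, 97412938 to 97417730, 2 merged exons) was at 936, 911, 745 and 872 CPM in WT, 1675, 1646, 1668 and 1482 CPM in TA and 880.1, 898, 842 and 802 CPM in TD. All TA libraries were above all others, and TD lay inside the WT range. Thrsp rose 1.87-fold in TA (log2 0.90 ± 0.09, 95% interval of the fold 1.65 to 2.12, edgeR adjusted p = 3.77e-06), and TD was below TA by -0.92 ± 0.09 (edgeR adjusted p = 4.64e-06), or -0.45 relative to adipocyte markers (edgeR adjusted p = 0.00137). Against WT, TD was at -0.02 with a 95% interval of -0.20 to 0.16, a value near 0 that reversed to 0.052 with library totals and to a called 0.47 relative to adipocyte markers (edgeR adjusted p = 9.49e-04). T3 was in the medium of all genotypes.

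**Figure D3:**
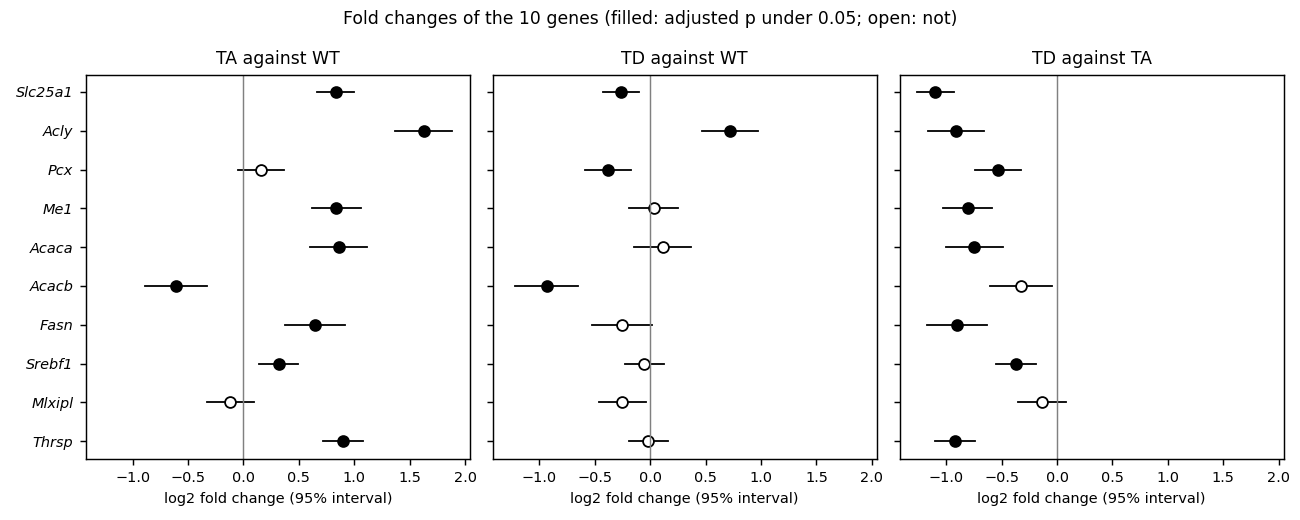
Log2 fold changes (points) of the 10 genes with 95% intervals (lines) for TA against WT, TD against WT and TD against TA, filled where the edgeR adjusted p is under 0.05 with TMM scaling. Acly at 1.63 lies farthest right in TA and Acacb at -0.93 farthest left in TD against WT, and relative to adipocyte markers the lower TD values of Slc25a1, Pcx, Fasn, Srebf1, Mlxipl and Thrsp against WT and of Acacb, Srebf1 and Mlxipl against TA change sign.

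Levels were compared between genes after division by the length of the principal transcript, as CPM per kilobase. The order depends on this choice of length. All exons of Thrsp together span 2189 bases beside 1277 for its principal transcript, and those of Pcx 4753 beside 4061. In WT the order was Fasn (953 ± 182 CPM per kilobase, SD, n = 4), Thrsp (678 ± 66.5), Pcx (664 ± 26.9), Me1 (332 ± 28.5), Slc25a1 (294 ± 15.3), Acly (241 ± 16.5), Srebf1 (128 ± 10.4), Acaca (82.5 ± 12.1), Acacb (40.9 ± 8.79) and Mlxipl (40.1 ± 6.38). Thrsp and Pcx, and Acacb and Mlxipl, were neighbours whose libraries overlapped. In TA Acly stood in the third place of the order at 744 ± 145 CPM per kilobase, beside 241 in WT, and its libraries overlapped with those of Pcx (740.5 ± 104). Those of Pcx overlapped with Me1 (594 ± 90.2), those of Me1 with Slc25a1 (523 ± 36.7), and Srebf1 (159 ± 16.1) with Acaca (150 ± 24.4). In TD Acly came after Fasn (800.0 ± 66.2), Thrsp (670.0 ± 33.2) and Pcx (511 ± 19.9), at 396 ± 30.1 CPM per kilobase, overlapping with Me1 (340 ± 15.3). Acacb had the lowest level per length in both mutants, 26.8 ± 4.53 in TA and 21.4 ± 0.667 in TD.

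Within TA, the same libraries were often the lowest, TA 3 for 6 of the 10 genes and TA 4 for the other 4, while TA 1 was the highest for 5. TA 4 also had the lowest share of mitochondrially encoded counts, 2.74%, beside 3.62 to 4.50% in the other TA libraries, and the part of this in the values of the 10 genes was not tested.

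Of the genes that supply the route with citrate and NADPH, few passed the test in TA and most fell in TD. Of the 22 genes listed, 21 were tested, among them citrate synthase, the pyruvate dehydrogenase subunits, mitochondrial pyruvate carriers and the pentose phosphate dehydrogenases. In TA 2 rose, where 6.72% of all genes were called higher and 4.41% lower, with a median of -0.065. These were Mpc2 of the pyruvate carrier (log2 0.58 ± 0.10, edgeR adjusted p = 0.00134) and Pdhb of pyruvate dehydrogenase (0.27 ± 0.08, edgeR adjusted p = 0.0447), the second named after its value was seen. By edgeR none fell, beside 2 by DESeq2 and 8 at an unadjusted p under 0.05, and leaving out 1 library gave 1 to 4 that rose and up to 5 that fell (5 without TA replicate 2, 4 that rose without TA replicate 3). In TD 19 fell against WT, where 14.2% of all genes were called lower. None rose by edgeR, by DESeq2 or at an unadjusted p under 0.05, where edgeR called 15.1% of all genes higher. The median was -0.44, beside 0.011 over all genes. The largest fall was that of mitochondrial acetyl-CoA synthetase Acss1, from 18.2 to 9.38 CPM (-0.96 ± 0.22, edgeR adjusted p = 0.00471). Against TA 14 were lower in TD, where 9.37% of all genes were called lower, led by Mpc2 (-1.09 ± 0.10, edgeR adjusted p = 5.66e-06). Scaled to adipocyte markers, TD was called lower than WT for 2 of the 21 and higher for 4, with a median of 0.047 beside 0.49 over all genes, and 64.5% of all genes were called higher. In the same scaling TD was called lower than TA for 3 and higher for 8, with a median of 0.14 beside 0.50 over all genes, of which 65.5% were called higher.

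Few of the genes that control the SREBP pathway passed the test, all 12 of the list being tested. Insig2, which retains SREBP in the endoplasmic reticulum, rose in TA (log2 0.63 ± 0.08, edgeR adjusted p = 6.88e-05), as did the nuclear receptor partner Rxra (0.58 ± 0.07, edgeR adjusted p = 4.31e-05), named after its value was seen. These were 2 of the 12, where 6.72% of all genes were called higher in TA and 4.41% lower, and the median was 0.055. None fell by edgeR or DESeq2, and 2 had lower values at an unadjusted p under 0.05. In TD 1 gene rose, where 15.1% of all genes were called higher, and 2 fell, where 14.2% were called lower. The gene that rose was the SREBP protease Mbtps1 (0.19 ± 0.06, edgeR adjusted p = 0.0360), a call lost when any of the 8 libraries other than WT replicate 2 was left out. The falls were led by Insig1 (-0.56 ± 0.15, edgeR adjusted p = 0.00910), a target as well as an inhibitor of SREBP. The Insig1 libraries of TD and WT overlapped, with a WT mean of 498 CPM and an SD of 137 CPM. Against TA 3 were lower in TD, where 9.37% of all genes were called lower, again led by Insig1 (-0.87 ± 0.15, edgeR adjusted p = 9.99e-04). With adipocyte scaling TD was called above WT for 11 of the 12 (64.5% of all genes), and above TA for 9 (65.5% of all genes) and below it for 2.

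Partners of ChREBP and Thrsp and targets of ChREBP included 9 tested genes of 10. In TA 3 rose and 1 fell, where 6.72% of all genes were called higher and 4.41% lower, with a median of 0.13. The cytosolic glycerol-3-phosphate dehydrogenase Gpd1, which makes the glycerol backbone of triglyceride, rose from 465 to 1240 CPM (log2 1.41 ± 0.12, edgeR adjusted p = 9.56e-07). The arrestin-domain gene Arrdc4, a glucose-responsive target of ChREBP and its relatives, rose in TA and rose most of this list in TD, from 6.90 to 16.2 CPM (1.23 ± 0.17, edgeR adjusted p = 1.41e-04). Mid1ip1, a binding partner of Thrsp, rose in TA (0.68 ± 0.10, edgeR adjusted p = 2.30e-04) and was named after its value was seen. Tkfc, a kinase of fructose breakdown, fell in TA (-0.43 ± 0.10, edgeR adjusted p = 0.0131). In TD 3 fell and Arrdc4 alone rose, where 14.2% of all genes were called lower and 15.1% higher. The falls were led by the insulin-responsive glucose transporter Slc2a4 (-0.53 ± 0.10, edgeR adjusted p = 7.93e-04). Between the mutants Txnip was higher in TD (0.35 ± 0.09, edgeR adjusted p = 0.0180), though not without TD replicate 2, and 4 genes were lower, led by Gpd1 (-1.89 ± 0.12, edgeR adjusted p = 6.38e-08). Of all genes, 7.33% were called higher and 9.37% lower between the mutants. With adipocyte scaling TD was above WT for 5 of the 9 (64.5% of all genes), and below it for none, also at an unadjusted p under 0.05.

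Among 13 genes that control the carboxylases or attach and supply biotin, the vitamin transporter Slc5a6 fell in TA, from 19.7 to 8.25 CPM (log2 -1.25 ± 0.14, edgeR adjusted p = 2.69e-05). No other passed the test there, where 6.72% of all genes were called higher and 4.41% lower. In TD 4 of the 13 fell against WT, where 14.2% of all genes were called lower. They were led by Trib3, a pseudokinase that can direct the carboxylase to degradation (-0.95 ± 0.19, edgeR adjusted p = 0.00167). Between the mutants Slc5a6 was higher in TD (0.88 ± 0.14, edgeR adjusted p = 6.96e-04) and 4 genes were lower, led by malonyl-CoA decarboxylase Mlycd (-0.65 ± 0.13, edgeR adjusted p = 0.00335). Of all genes, 7.33% were called higher and 9.37% lower between the mutants. With adipocyte scaling TD was above WT for 9 of the 13 (64.5% of all genes) and below it for 2, and above TA for 8 (65.5% of all genes).

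Genes that elongate, desaturate or esterify newly made palmitate went both ways, with 11 of 12 tested. In TA 4 rose and 1 fell, where 6.72% of all genes were called higher and 4.41% lower. Elovl6, which elongates palmitate, rose from 28.5 to 64.5 CPM (log2 1.18 ± 0.19, edgeR adjusted p = 8.16e-04), and the desaturase Scd1 fell (-0.41 ± 0.12, edgeR adjusted p = 0.0306), a call lost without TA replicate 3 or WT replicate 1, 3 or 4. In TD Elovl6 also rose against WT (0.60 ± 0.19, edgeR adjusted p = 0.0285, not past the threshold without TD replicate 3 or 4 or WT replicate 2 or 3), while 7 genes fell, led by Lpin1 of triglyceride synthesis (-0.68 ± 0.12, edgeR adjusted p = 5.46e-04). Of all genes, 15.1% were called higher and 14.2% lower in TD against WT. Against TA 6 genes of the list were lower in TD, where 9.37% of all genes were called lower, led by the acyl-CoA synthetase Acsl1 (-0.94 ± 0.14, edgeR adjusted p = 3.13e-04). The median of the list was 0.074 in TA and -0.34 in TD against WT, and with adipocyte scaling TD was above WT for 3 of its genes (64.5% of all genes) and below it for none, also at an unadjusted p under 0.05. In that scaling TD was above TA for 5 (65.5% of all genes) and below it for 2, with a median of -0.028 beside 0.50 over all genes.

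**Figure D4:**
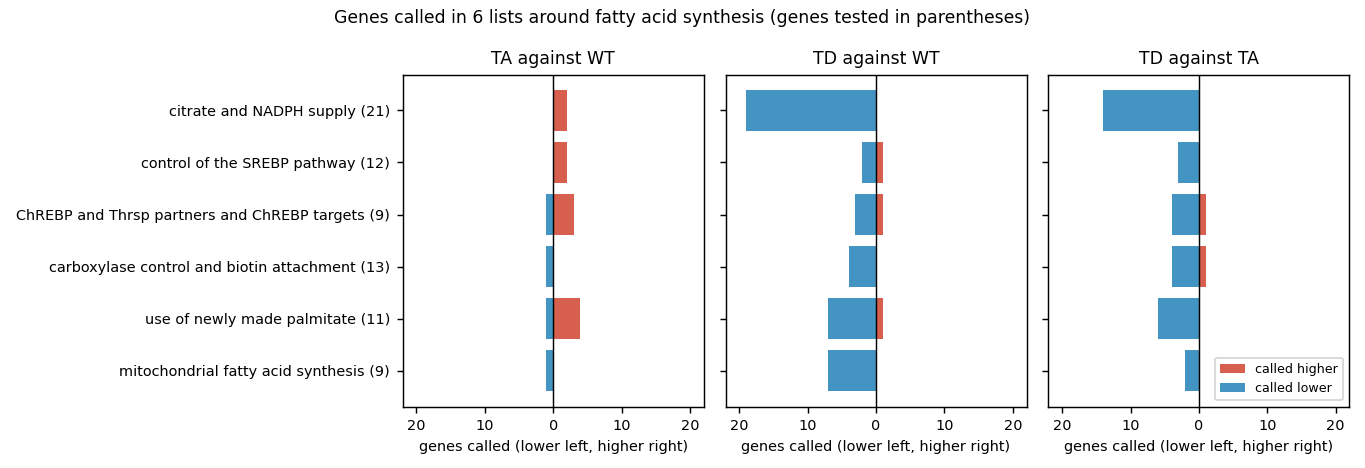
Number of genes called higher (bars to the right) or lower (bars to the left) with TMM scaling in 6 lists around fatty acid synthesis, for TA against WT, TD against WT and TD against TA. The longest bar is the 19 of 21 citrate and NADPH supply genes lower in TD than in WT, beside 14.2% of all genes. Relative to adipocyte markers that count was 2, beside 1.67% of all genes.

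The genes most like Acly, Fasn and Srebf1 were ranked by the root mean square difference of log2 CPM, each gene centred on its own mean, over the 12 libraries. Nearest to Acly was the septin gene Sept6 (0.125), whose symbol appears as a date in the deposited table and was read from its identifier, with 18.2 CPM in WT, 55.7 in TA and 33.8 in TD. Mylk (0.210), Adam12 (0.214), Slit2 (0.218) and Pag1 (0.243) followed, none of them an enzyme of lipid synthesis. Which cells of the cultures the Acly counts came from was not tested. Fasn was closest to Acsl1 (0.115), which activates long-chain fatty acids, and then to Ermp1 (0.118), Arhgef37 (0.131), the adiponectin receptor Adipor2 (0.140) and Mc5r (0.151). Around Srebf1 were Mxd4 (0.0529), Sesn1 (0.0616), Rundc1 (0.0698), Spns1 (0.0814) and Plekhg5 (0.0830), in a range where Srebf1 itself deviates by 0.188 from its mean. The same deviation was 0.678 for Acly and 0.413 for Fasn.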

How the data were processed

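Total RNA of the cultured adipocytes was sequenced as 12 libraries on a NovaSeq instrument, and the authors aligned the reads to GRCm38 with HISAT2 2.0.1 and deposited raw read counts per gene, without normalization. The submitters' processing notes also name bcl2fastq 2.17.1.14, cutadapt 1.9.1 and HTSeq 0.6.1, and the strand setting is not given in the sources used here. The counts of the series table and of the 12 library files were equal. Genotype and replicate number were taken from the labels. Replicates of a genotype differed by more than counting noise (chi-square per degree of freedom 4.67 to 35.3 over 18 pairs).

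Genes were kept by edgeR's filterByExpr (minimum count 10, minimum total 15). Libraries were scaled by TMM (factors 0.957 to 1.04), and edgeR 4.0.16 (R 4.3.3) fitted a quasi-likelihood model to all 12 libraries. P-values were two-sided and adjusted by the Benjamini-Hochberg method over 15117 genes, with a threshold of 0.05. CPM are counts scaled to 1000000 per TMM-scaled library. Ratios were compared by exact permutation. Positions and transcript lengths came from GENCODE M21, which holds 99.8% of the gene identifiers, and promoters from RefSeq.

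The members, the lists and the tests were chosen with earlier results of these data known. Named are the 10 members, the called gene with the largest rise and fall of each list in each comparison, the 5 genes nearest to Acly, Fasn and Srebf1, and Pparg, Adipoq and Fabp4. Outside this rule, Pdhb, Rxra and Mid1ip1 were named after their values were seen, and Acss2 and Srebf2 as the partners of ratios. Lpl was named for its part in the adipocyte marker sum, and Rai1 for its overlap with Srebf1. Counting error is small at these depths (at least 1936 counts per member and library), and the spread between libraries sets the precision. Alternatives were DESeq2 1.42.0, other scalings and filters, a fit of 2 genotypes, a replicate block and leaving out each library. A replicate number is shared between genotypes by name only. The planned features of the proteins were not analysed here.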

Additional observations from a re-analysis of the deposited data

Results flagged for a closer look

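For Thrsp the lowest of the 4 TA libraries, TA replicate 4 at 1482 CPM, lay far from the other 3 TA libraries relative to their range (1646 to 1675 CPM). It was the only value to do so among the 30 groups of 4 libraries examined, and chance flags about 1 in 20 such groups. It was above the highest WT library (936 CPM) and the highest TD library (898 CPM).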

How the results depend on the processing

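The counts of members called stayed within 1.5 times in all 48 counts with 1 library left out and in 45 of 54 counts under other settings. A replicate block kept them at 1 higher and 3 lower for TD against WT, 7 and 1 for TA against WT, and 0 and 8 for TD against TA. The replicate numbers do not pair the libraries (correlations of deviations -0.24 to 0.20). With an absolute log2 fold change above 1 required as well, the counts were 0 higher and 0 lower for TD against WT, 1 and 0 for TA against WT, and 1 lower for TD against TA. Scaling to adipocyte markers, chosen after seeing the data, gave 6 higher and 1 lower for TD against WT, 1 and 5 for TD against TA, and 7 and 1 for TA against WT. In that setting TD against WT reversed for Fasn (0.24), Slc25a1 (0.22), Pcx (0.11), Srebf1 (0.43), Mlxipl (0.23) and Thrsp (0.47), and TD against TA for Acacb (0.17), Srebf1 (0.11) and Mlxipl (0.35). By its construction this setting lifts the median of all genes in TD, and why the markers are lower in TD was not tested. Library totals, which moved the median of all genes to 0.079 for TD against WT and 0.10 for TD against TA, reversed Srebf1 (0.013) and Thrsp (0.052) for TD against WT. Leaving out a library gave -0.082 to 0.026 for Thrsp in TD against WT. With the replicate block, an exact sign-flip test of 4 pairs cannot go below p = 0.125, so that the ratio differences of Acacb over Acaca (-1.03 in TD and -1.46 in TA against WT), Acly over Acss2 (0.96, 1.53 and, for TD against TA, -0.57) and Srebf1 over Srebf2 (-0.46 for TD against TA) could not pass. A pseudocount of 1 CPM kept Acacb over Acaca at 0.43 for TD against TA and brought its exact permutation p to 0.0286. Leaving out a library gave 0.31 to 0.54 for that ratio, -0.71 to -0.44 for Acly over Acss2 in TD against TA, and -0.26 to -0.16 and 0.20 to 0.32 for Srebf1 over Srebf2 in TD and in TA against WT, with calls on both sides of the threshold. Of 240 member fold changes with a library left out, 227 kept their direction and side of the threshold. Depth does not limit the members (1936 counts or more in each library).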

Other observations

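A separate route in mitochondria makes the short acyl chains from which lipoic acid, a cofactor of pyruvate dehydrogenase, is formed. Of its 9 genes, all tested, 7 fell in TD against WT, where 14.2% of all genes were called lower. Their median log2 fold change was -0.46, beside 0.011 over all genes. None of the 9 rose by edgeR, by DESeq2 or at an unadjusted p under 0.05, where edgeR called 15.1% of all genes higher. The acyl carrier protein Ndufab1 fell most, from 133 to 84.4 CPM (-0.65 ± 0.09, edgeR adjusted p = 1.93e-04). In TA 1 gene fell, the malonyl-CoA synthetase Acsf3 (-0.40 ± 0.10, edgeR adjusted p = 0.0130), where 4.41% of all genes were called lower. Against TA 2 were lower in TD, where 9.37% of all genes were called lower, led by Ndufab1 (-0.47 ± 0.09, edgeR adjusted p = 0.00284). The count was 5 without TA replicate 3 and 1 without TA replicate 1 or 2 or TD replicate 2, 3 or 4. Relative to adipocyte markers the median for TD against WT was 0.0090, and edgeR called none of the 9, beside 1 with a lower value at an unadjusted p under 0.05, where 64.5% of all genes were called higher. In the same scaling 4 were called higher in TD against TA and 0 lower, also at an unadjusted p under 0.05, with a median of 0.20, where 65.5% of all genes were called higher.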
